A study of Arabidopsis thaliana with 8 samples.

Results

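The 7 genes described here encode proteins of the light-harvesting antenna of photosystem II in Arabidopsis thaliana. They are LHCB3 (AT5G54270), LHCB4.1 (AT5G01530), LHCB4.2 (AT3G08940), LHCB4.3 (AT2G40100), LHCB5 (AT4G10340), LHCB6 (AT1G15820) and LHCB7 (AT1G76570, listed in the reference table by its locus). They were chosen by locus, and all 7 were found among the 27416 loci with a counted coding region. Messenger RNA and ribosome footprints, the RNase I-resistant mRNA pieces held inside ribosomes, were sequenced from plants in the dark condition and in the blue light condition. Each assay had 2 libraries per light condition, 8 in all. The labels name no genotype, tissue, plant age, light intensity or duration, so the groups differ by light only as far as the labels tell, and no tissue could be checked against markers.

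Antenna proteins sit in the thylakoid membrane of the chloroplast, where they bind chlorophyll a, chlorophyll b and carotenoids and pass absorbed energy to the reaction centre. LHCB1, LHCB2 and LHCB3 form the trimers of the major antenna, LHCB3 being the subunit of the trimer that lies farther from the core. LHCB4, LHCB5 and LHCB6, also called CP29, CP26 and CP24, are single proteins that link the trimers to the core. All are encoded in the nucleus, made in the cytosol and imported, and seedlings make them in quantity when they green in light. "Minor antenna" in its usual sense therefore covers LHCB4 to LHCB6, while LHCB3 belongs to the trimers and LHCB7 is a rarely expressed relative.

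The mRNA libraries held 688630 to 847469 counts and the footprint libraries 2888624 to 4919808. Chloroplast-encoded genes took 45.2% to 48.7% of the mRNA counts, which left 331867 to 436399 counts for nuclear genes in each mRNA library. Levels are given in CPM, the library size being scaled by TMM (a correction for library composition) within each assay, as mean ± SD (n = 2). Nothing in the labels says that replicates came from separate cultures, so p-values measure only the spread between these libraries, which may be technical. In such bulk samples more cells of a type and more RNA per cell cannot be told apart.

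Ribosomes on all 7 genes were more abundant in blue light. Together the genes took 0.359% ± 0.023 of the nuclear footprint counts without light and 1.08% ± 0.0045 with it (SD, n = 2). In each gene both blue-light libraries lay above both dark libraries, which was the case for 33.6% of the 15788 loci tested. Each of the 7 was also called higher, at a Benjamini-Hochberg adjusted p under 0.05 in edgeR's quasi-likelihood F-test, against 20.9% of all loci tested. The median log2 fold change of the 7 was 1.83, beside -0.018 over all loci tested. LHCB7 reached the minimum count through its blue-light libraries alone, so its call was tied to its rise.

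LHCB3 had the largest footprint change of the 7. Its dark libraries held 775 and 774 footprints and its blue-light libraries 13360 and 9944, that is 239 ± 16.8 and 2919.5 ± 32.0 CPM. The groups lay far apart, and replicates differed little. The log2 fold change was 3.61 ± 0.074 (SE, edgeR adjusted p = 8.06e-25), and 0.665% of all loci tested had a larger one.

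Footprints on the genes of the linker proteins rose less. LHCB6, which joins the outer trimer to LHCB4, had 2405 and 2602 dark and 7987 and 6384 blue-light footprints, a rise from 770.2 ± 10.6 to 1809 ± 71.3 CPM. Its log2 fold change of 1.23 ± 0.065 was the smallest of the 7 (edgeR adjusted p = 1.92e-15). LHCB5, the linker of the inner trimer, had 3097 and 2918 dark counts and 13538 and 9372 under blue light. Its mean level went from 928 ± 103 to 2856 ± 178 CPM, and the log2 fold change was 1.62 ± 0.073 (edgeR adjusted p = 4.63e-17). In LHCB5 the replicates of each group stood further apart than in LHCB6, but dark and blue libraries were still well separated.

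LHCB4, the linker that neighbours LHCB6, is encoded by 3 genes. LHCB4.1 had 2655 and 2532 dark counts and 8663 and 6981 blue-light counts, with a log2 fold change of 1.3 ± 0.071. LHCB4.2 had 1758 and 1839 dark counts and 8711 and 6917 blue-light counts, with a log2 fold change of 1.83 ± 0.067. Counted on its longest gene model, LHCB4.2 thus started below LHCB4.1 in the dark and reached close counts in blue light. The rarer LHCB4.3 had 49 counts in each dark library and 303 and 214 in blue light, a rise from 15.1 ± 1.05 to 64.5 ± 3.10 CPM with a log2 value of 2.1 ± 0.15 (edgeR adjusted p for the 3 genes at most 1.24e-12). How the counting treated reads that match related genes is not given in the sources used here, so reads of LHCB4.1 and LHCB4.2 may be split or shared between them.

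LHCB7 was nearly unread by ribosomes in the dark, with 6 and 7 counts, and had 55 and 47 in blue light. Its level rose from 2.0 ± 0.079 to 12.9 ± 1.12 CPM, and its log2 fold change was 2.66 ± 0.33 (edgeR adjusted p = 1.65e-07). Even in blue light it stood far below the other 6 genes.

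**Figure D1:**
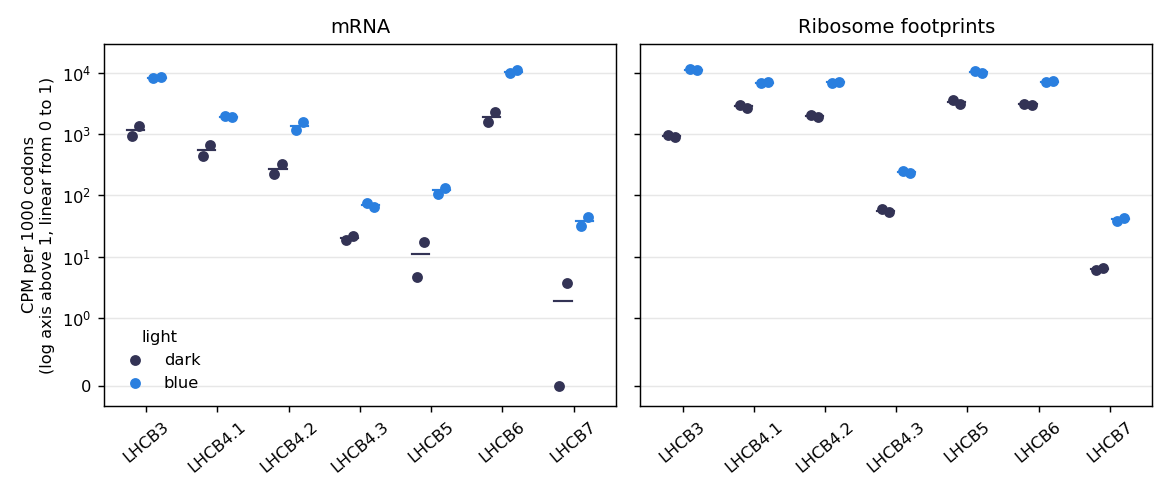
Level of each gene in every library, in CPM per 1000 codons of its counted region on a log axis (linear between 0 and 1), for mRNA (left) and footprints (right). Points are libraries, dark or blue light, and lines are means of 2. Blue-light points lie above dark points for all 7 genes in both assays, and LHCB5 is among the highest in footprints but near the bottom in mRNA.

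The footprint order of the genes changed with light, while in mRNA the first places, LHCB6, LHCB3, LHCB4.1 and LHCB4.2, stayed the same. Only LHCB4.3 and LHCB5, with few mRNA counts, changed places there. Levels of different genes were compared per 1000 codons of the counted region. In dark footprints the order was LHCB5 at 3426 ± 382, LHCB6 at 3093 ± 42.8 and LHCB4.1 at 2848 ± 293 CPM per 1000 codons, followed by LHCB4.2 at 1992 ± 75.0 and LHCB3 at 933 ± 65.6. LHCB4.3 at 56.6 ± 3.93 and LHCB7 at 6.28 ± 0.25 came last. The differences between LHCB5 and LHCB6 and between LHCB6 and LHCB4.1 were smaller than their combined SD. In blue light LHCB3 came first at 11405 ± 125, ahead of LHCB5 at 10538 ± 655, and these were 866 apart with a combined SD of 667. LHCB6 at 7267 ± 286, LHCB4.2 at 7075 ± 246 and LHCB4.1 at 7013 ± 317 overlapped and could not be ranked, with LHCB4.3 at 242 ± 11.6 and LHCB7 at 40.6 ± 3.51 below them. On its shorter gene model LHCB4.2 stood at 5937 in blue light, below LHCB4.1, so this overlap rests on the longer model.

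As shares of the 7 genes per codon, LHCB3 made up 7.55% ± 0.0047 of the footprints in the dark and 26.2% ± 0.32 in blue light. LHCB6 went from 25.1% ± 1.4 to 16.7% ± 0.63, LHCB4.1 from 23.0% ± 0.77 to 16.1% ± 0.70 and LHCB5 from 27.7% ± 1.16 to 24.2% ± 1.54. LHCB4.2 held 16.1% ± 0.52 and 16.2% ± 0.54. The higher share of LHCB3 was thus met mostly by lower shares of LHCB4.1 and LHCB6. Within the LHCB4 genes alone, LHCB4.1 went from 58.1% ± 1.57 to 48.9% ± 0.33 of the footprints per codon, LHCB4.2 went from 40.7% ± 1.56 to 49.4% ± 0.18, and LHCB4.3 held 1.16% ± 0.0075 and 1.69% ± 0.15.

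**Figure D2:**
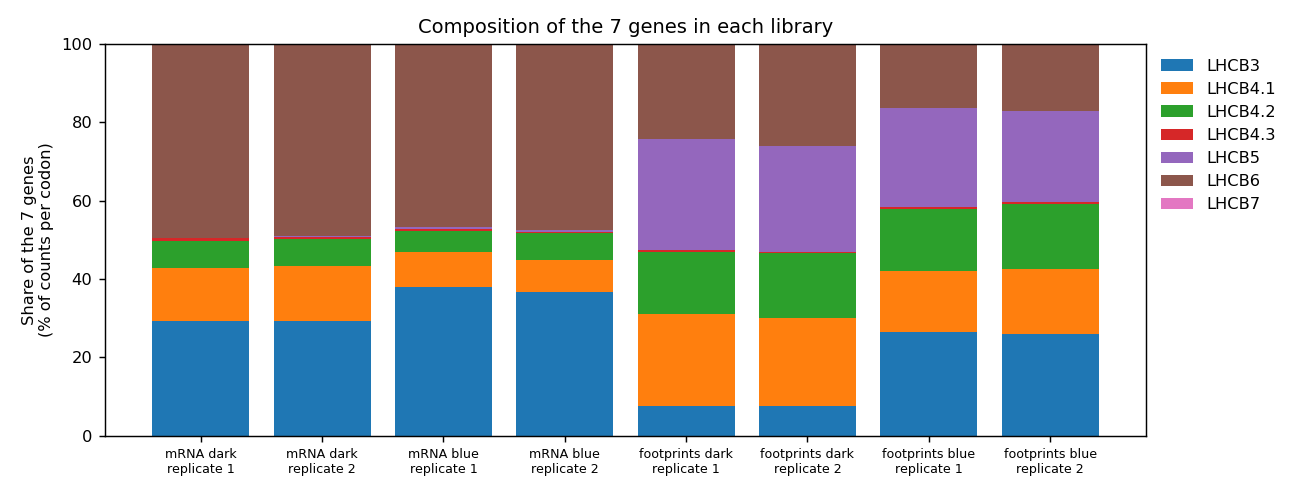
Share of each of the 7 genes in their summed counts per codon, for each of the 8 libraries. Bars are single libraries and add up to 100% of the 7 genes. In footprints the LHCB3 segment widens from 7.55% in the dark to 26.2% in blue light (means of 2), and LHCB5 is a wide segment in footprints but hardly visible in mRNA.

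Ratios between 2 genes of the same library do not depend on library scaling. The log2 ratio of LHCB3 to LHCB6 footprints was -1.63 and -1.75 in the dark libraries, against 0.74 and 0.64 under blue light. The footprint response of LHCB3 exceeded that of LHCB6 by 2.38 ± 0.099, of LHCB4.1 by 2.31 ± 0.10, of LHCB5 by 1.99 ± 0.10 and of LHCB4.2 by 1.78 ± 0.10 log2 units (difference of fitted log2 fold changes, combined SE). It exceeded that of LHCB4.3 by 1.51 ± 0.17 and of LHCB7 by 0.95 ± 0.34. For each of these pairs the dark and blue ratios did not overlap. That held for 20 of the 21 footprint pairs among all the genes, so it was not particular to LHCB3. Moreover, 2 libraries against 2 cannot give an exact two-sided permutation p below 0.333. LHCB4.1 and LHCB6, the remaining pair, differed in response by 0.069 ± 0.097, and their ratios overlapped between dark and blue light.

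The mRNA of the antenna genes was also more abundant in blue light. The library sizes behind mRNA CPM include the chloroplast counts. Relative to nuclear counts alone, and without TMM scaling, mRNA levels were 1.71 to 2.05 times those given. The 7 genes took 0.199% ± 0.069 of the nuclear mRNA counts without light and 0.992% ± 0.078 with it (SD, n = 2). Both blue-light libraries lay above both dark libraries in each gene, as they did for 22.5% of the 7822 loci tested. Of the 6 genes with enough counts to be tested 5 were called higher, against 2.85% of all loci tested. LHCB4.3 and LHCB5 reached the minimum count through the blue-light libraries alone, so their entry into the test was tied to a rise.

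LHCB6 had the most mRNA, with 313 and 486 dark counts and 1731 and 1593 under blue light. Its level was 483 ± 123 and then 2632 ± 175 CPM, and its log2 fold change 2.44 ± 0.22 (edgeR adjusted p = 3.76e-09). LHCB3 had 190 and 300 dark counts and 1445 and 1275 blue-light counts, and its log2 fold change was 2.86 ± 0.23 (edgeR adjusted p = 3.42e-10). In both genes, as in LHCB4.1 and LHCB4.2, dark replicate 2 lay above dark replicate 1, and both were far below the blue-light libraries.

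LHCB4.1 mRNA was counted 97 and 157 times in the dark and 379 and 312 times in blue light, and LHCB4.2 mRNA 50 and 76 and then 226 and 254 times. Their log2 fold changes were 1.82 ± 0.25 and 2.32 ± 0.28 (edgeR adjusted p = 9.50e-06 and 8.35e-07). LHCB4.3 had only 4 and 5 dark counts and 14 and 10 blue-light counts, and its log2 fold change of 1.75 ± 0.80 did not pass (edgeR adjusted p = 0.318). For LHCB4.2 the shorter gene model, with 218 of the 278 codons, held 49, 77, 225 and 254 mRNA counts, as many as the longer one. In footprints the same shorter model held 1131 and 1270 dark and 5686 and 4587 blue-light counts, fewer than the longer one. How the counts of the models of a locus overlap is not given in the sources used here.

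LHCB5 had few mRNA counts. It was counted 1 and 4 times in the dark and 20 and 21 times under blue light, while its footprints numbered at least 2918 in each library. Its level was 2.98 ± 2.43 CPM in the dark and 32.7 ± 5.20 CPM in blue light, a log2 fold change of 3.35 ± 0.67 (edgeR adjusted p = 0.00164). The value was 2.69 without dark mRNA replicate 1 and 4.50 without dark mRNA replicate 2. The call was lost without blue mRNA replicate 2 (edgeR adjusted p = 0.120) and with limma-voom (adjusted p = 0.719), so the rise of LHCB5 mRNA rests on few reads. Whether reads of this mRNA were lost in mapping or counting could not be checked here, so the counts may understate its level.

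LHCB7 mRNA had 0 and 1 dark counts and 7 and 8 under blue light, too few to pass the filter and be tested. The count of 0 among 847469 allows a share of up to 3.54e-04%, counting error only. The ratio of blue to dark, summed over libraries, was 19.4 with an exact 95% counting interval of 2.99 to 817. In a fit without the filter the log2 fold change was 3.92 ± 1.26 and did not pass (edgeR adjusted p = 0.160).

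**Figure D3:**
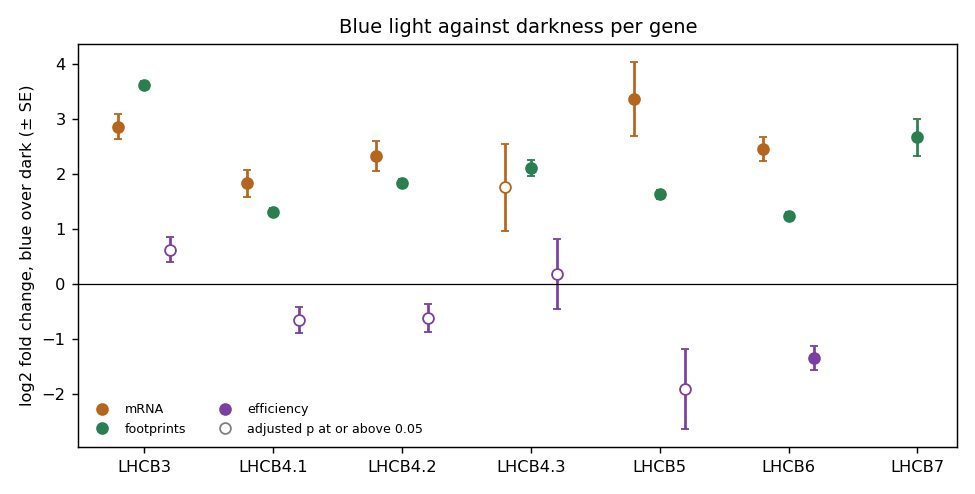
Fitted log2 fold change of blue light over darkness for each gene in mRNA, footprints and efficiency, with SE bars. Filled points were called at an adjusted p under 0.05 and open points were not. LHCB3 has the highest footprint value at 3.61 and LHCB6 the lowest at 1.23, and LHCB6 has the only filled efficiency point. LHCB7 was tested in footprints alone.

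Translational efficiency, the ratio of footprints to mRNA, was compared between the light conditions in 1 model of all 8 libraries, as the assay-by-light interaction. This model shared 1 spread per gene between the assays. The common dispersion, a measure of spread, was 0.052 in mRNA alone, 0.0023 in footprints alone and 0.0044 in the shared model. Efficiency SE may therefore understate the spread of mRNA. With limma-voom and a sample weight per assay 465 loci were called instead of 625, LHCB6 among them. LHCB6 was the single member called, lower in blue light, where 4.93% of the 6169 loci tested were called lower and 5.2% higher. Calls were 304 lower and 321 higher, against 218 and 364 when nuclear loci alone were fitted. LHCB6 mRNA had risen by 2.44 and its footprints by 1.23 log2 units in the separate fits, and their subtraction gave -1.21. The change of efficiency fitted in the model of all 8 libraries was -1.35 ± 0.22 (edgeR adjusted p = 1.69e-04). The log2 ratio of LHCB6 footprint CPM to mRNA CPM was 0.67 in the dark, with a range of 0.42 to 0.97 over the pairs of libraries. In blue light it was -0.54, with a range of -0.65 to -0.43.

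LHCB3 stood on the other side, with an efficiency change of 0.62 ± 0.23 that did not pass (edgeR adjusted p = 0.0815). It was called higher without dark mRNA replicate 1 (0.90, adjusted p = 0.00223), without the filter on low counts (0.72, adjusted p = 0.0462) and when the separate mRNA and footprint fits were subtracted (0.76, adjusted p = 0.0213). LHCB4.1 had -0.66 ± 0.23 (adjusted p = 0.0677), and was called lower without dark mRNA replicate 2 (-0.99, adjusted p = 0.00696), with the DESeq2 Wald test (-0.69, adjusted p = 0.0422) and with a filter at 10 CPM (-0.67, adjusted p = 0.0395). The calls of LHCB3 and LHCB4.1 thus depended on which dark mRNA library was used and on the filter. LHCB4.2 had -0.62 ± 0.25 and LHCB4.3 0.18 ± 0.63 (edgeR adjusted p = 0.124 and 0.897). LHCB5 had -1.91 ± 0.72 (edgeR adjusted p = 0.0958), which ranged from -3.15 without dark mRNA replicate 2 to -1.25 without dark mRNA replicate 1, and passed with limma-voom (adjusted p = 0.0468).

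The 6 tested genes also differed in the ratio itself. In the dark LHCB5 had the highest ratio of footprints to mRNA of all 6169 loci, 8.06 on the log2 scale (7.36 to 9.15 over the pairs of libraries), where the median locus had 0.48. In blue light its ratio was 6.43 (6.21 to 6.66, median locus 0.68), below only the polyubiquitin genes UBQ10 and UBQ3. LHCB4.2 followed at 2.85 in darkness and 2.36 under blue light, and LHCB4.1 at 2.38 and 1.86, above 90.8% and 85.2% of loci in the dark. The shorter model of LHCB4.2 held about as many mRNA counts but fewer footprints, so its ratio was lower there. The place of LHCB4.2 above LHCB4.1 thus rests on the longer model. LHCB3 lay at -0.31 and 0.44, below the median locus in both conditions. LHCB5 and LHCB6, close in dark footprints per codon, thus differed widely in mRNA counts. The rank of LHCB5 rests on these few mRNA counts, and its ratio would be overstated if mRNA reads of the gene had been lost in mapping or counting.

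**Figure D4:**
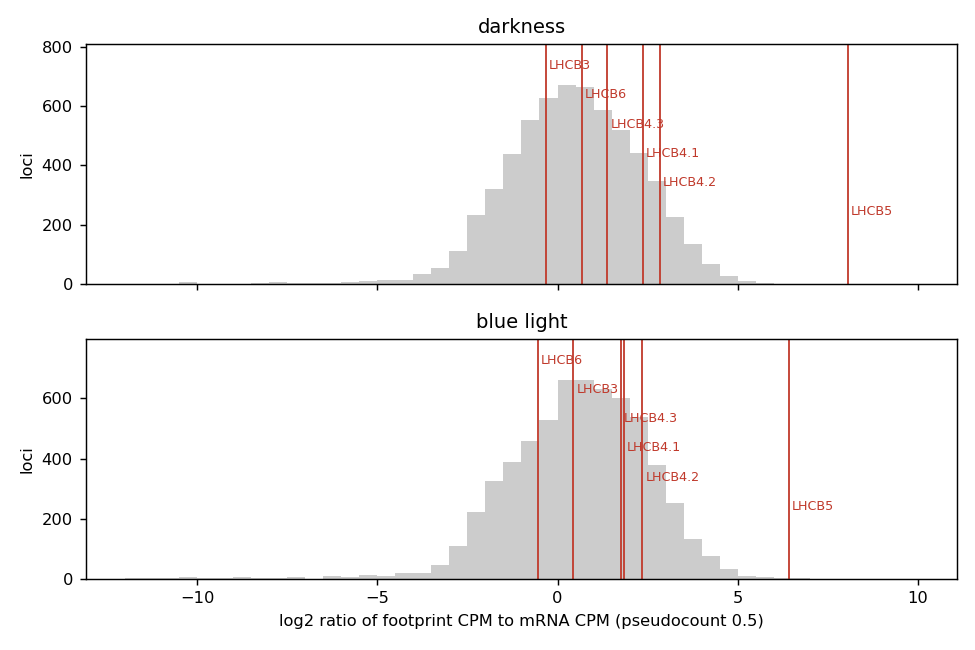
Distribution over 6169 loci of the log2 ratio of footprint CPM to mRNA CPM (pseudocount 0.5), in darkness (top) and blue light (bottom), with the 6 tested genes marked by lines. LHCB5 lies at the far right at 8.06 and 6.43, and LHCB6 moves from 0.67 to -0.54.

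The other antenna genes are the closest comparison. All 8 genes of LHCB1 and LHCB2, the bulk of the trimers, were called higher in footprints, with a median of 2.95. They ranged from LHCB2.3 at 2.50 ± 0.073 to LHCB1.4 at 3.36 ± 0.074 and LHCB1.1 at 3.42 ± 0.069, so LHCB3 at 3.61 lay above all 8 and the linker genes LHCB4.1, LHCB4.2, LHCB5 and LHCB6 below all 8. Since LHCB1 and LHCB2 genes are near copies of each other, reads may be counted at several of them. The value of any single gene, and of their sum, is therefore uncertain. Summed per codon, LHCB1 and LHCB2 held 1.46 ± 0.089 times the footprints of the 7 genes in the dark and 3.25 ± 0.069 times in blue light (SD, n = 2). In mRNA these ratios were 2.07 ± 0.083 and 4.24 ± 0.27. LHCB5 made up only 0.26% (dark) and 0.53% (blue light) of the mRNA of the 7 genes per codon, so the mRNA ratios would be too high if its reads had been lost. In both assays the major antenna thus stood further above the LHCB3 to LHCB7 group in blue light.

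In mRNA all 8 LHCB1 and LHCB2 genes were called higher (median 3.92), from LHCB1.3 at 2.81 ± 0.20 to LHCB1.4 at 5.11 ± 0.30 and LHCB1.1 at 5.43 ± 0.25. In efficiency 6 of the 8 were called lower (median -1.43), with LHCB1.1 at -2.15 ± 0.26, whereas LHCB1.3 and LHCB1.2 had 0.0073 ± 0.24 and -0.075 ± 0.23. LHCB6 was thus not alone among antenna genes in a fall of efficiency. The LHCA genes of the photosystem I antenna were called higher in all 6 cases in footprints (median 1.31), from LHCA2 at 0.65 ± 0.066 to LHCA4 at 3.05 ± 0.071 and LHCA1 at 3.68 ± 0.077. In mRNA the 4 genes LHCA1 to LHCA4 rose among 5 tested (median 2.33), with LHCA1 at 3.61 ± 0.42 and LHCA4 at 2.55 ± 0.29, and LHCA6 had 0.29 ± 0.65. LHCA2 and LHCA3 were called lower in efficiency at -0.82 ± 0.20 and -1.19 ± 0.35, while LHCA6 and LHCA4 had 0.39 ± 0.51 and 0.37 ± 0.27.

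**Figure D5:**
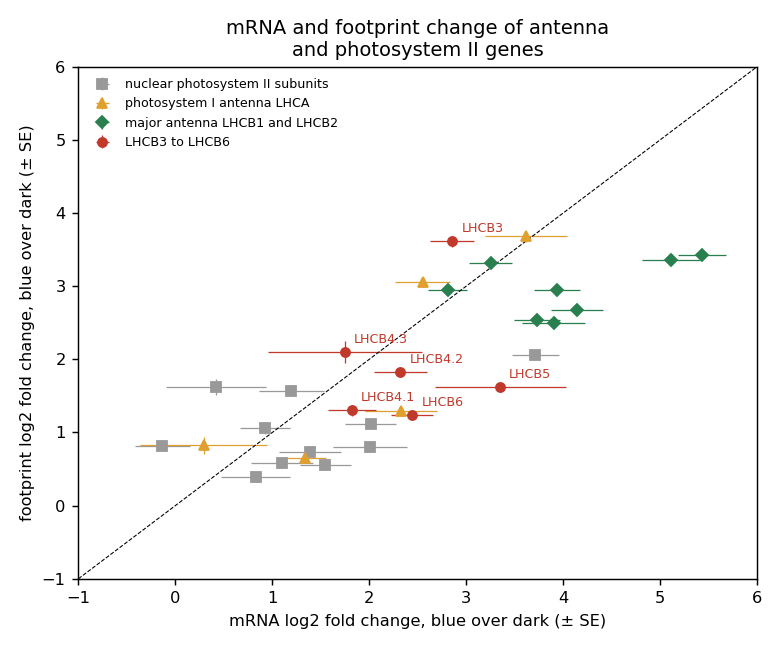
Footprint against mRNA log2 fold change, blue over dark, with SE bars, for the antenna and nuclear photosystem II genes tested in both assays. The dashed line marks equal change. LHCB3 lies above the line with a footprint change of 3.61, and LHCB6 below it at 2.44 in mRNA and 1.23 in footprints.

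Nuclear subunits of photosystem II itself had a lower median change than its antenna. All 13 were called higher in footprints (median 0.81), led by PSBS, the sensor of energy quenching, at 2.06 ± 0.069 and the assembly factor PSB28 at 1.62 ± 0.11, with PSBQ1 of the oxygen-evolving complex lowest at 0.39 ± 0.068. In mRNA 8 of 11 rose (median 1.19), with PSBS at 3.71 ± 0.24, PSBY at 2.01 ± 0.26 and PSBO1 at -0.13 ± 0.28. In efficiency 4 of 11 were called lower, PSBS at -1.79 ± 0.21, PSBX, PSBY and PSBR, and PSBO1 was called higher at 0.81 ± 0.25. PSB28 had the largest efficiency value, 1.07 ± 0.45, which did not pass.

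Genes that serve the antenna proteins rose in part. In the pathway that inserts them into the thylakoid, footprints of the insertase ALB3 rose by 2.29 ± 0.089, of CPSRP43 by 1.48 ± 0.10 and of CPSRP54 by 1.25 ± 0.092, 3 of 5 genes, while LTD at 0.23 ± 0.098 and CPFTSY at 0.29 ± 0.18 did not pass (edgeR adjusted p = 0.0697 and 0.203). CPSRP43, whose mRNA had -0.47 ± 0.39, was called higher in efficiency at 1.81 ± 0.34, and CPSRP54, whose mRNA rose by 2.05 ± 0.37, had -0.93 ± 0.34. Of the enzymes that add phosphate to antenna and core proteins or remove it, all 4 rose in footprints, STN7 by 1.59 ± 0.16, TAP38 by 1.17 ± 0.18, STN8 by 0.94 ± 0.16 and PBCP by 0.74 ± 0.20. In mRNA TAP38, STN7 and STN8 had -0.21 ± 0.48, -0.65 ± 0.49 and -0.75 ± 0.40, which did not pass. STN7 and STN8 were called higher in efficiency at 2.14 ± 0.45 and 1.55 ± 0.38, and TAP38 had 1.26 ± 0.49.

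Chlorophyll b, which the antenna proteins need for folding, is made by CAO, whose footprints rose by 3.21 ± 0.092. Among the enzymes that turn it back into chlorophyll a, NYC1 rose by 0.31 ± 0.095, and NOL and HCAR had -0.15 ± 0.17 and -0.15 ± 0.16. None of these 4 genes had enough mRNA counts to be tested. The transcription factors GLK2 and GLK1, which activate antenna genes, rose in footprints by 3.82 ± 0.10 and 1.92 ± 0.18. GLK2 also rose in mRNA, by 2.93 ± 0.55, while GLK1 mRNA had 1.14 ± 0.52, and their efficiency values of 0.73 ± 0.64 and 0.65 ± 0.49 did not pass.

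Genes with the most similar pattern were sought among 6062 nuclear loci tested in both assays. The measure was the root mean square difference of the 8 log2 CPM values, each centred on the mean of its assay. Closest to the mean of the 6 tested genes was VAR1, an FtsH protease of the thylakoid, at 0.043 log2 units, followed by AT4G16140 at 0.11, CRD1, an enzyme of chlorophyll synthesis, and FBA2, a plastid aldolase, both at 0.13, and RCA, Rubisco activase, at 0.14. The 6 genes themselves lay 0.11 (LHCB4.2) to 0.61 (LHCB3) from their mean. The nearest locus to LHCB3 was ABA1, zeaxanthin epoxidase (0.093), to LHCB4.1 NIT1 (0.10), to LHCB4.2 CRD1 (0.070), to LHCB4.3 AT3G21690 (0.096), to LHCB5 AGP17 (0.25) and to LHCB6 RBCS1A, a small subunit of Rubisco (0.056). ABA1 had only 10 mRNA counts in the dark libraries together, so its place is a loose one. LHCB4.3 and LHCB5 had fewer still, so their nearest loci, and their part in the mean, are loose too.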

How the data were processed

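Deposited files hold whole-number read counts per transcript model, not normalized, and another column that resembles the counted coding length in codons, identical in all files. Per the submitters' processing notes the tools were CASAVA 1.8, Bowtie2 2.1.0 and TopHat2 2.0.9 with build TAIR10. The counting tool is not given in the sources used here. The longest model of each locus was used, symbols came from a TAIR10.1 table, and no sequence or coordinate is given.

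Tests used edgeR 4.0.16 in R 4.3.3 on counts as deposited. Loci were kept by filterByExpr (minimum count 10), libraries scaled by TMM, and light tested by the two-sided quasi-likelihood F-test, with Benjamini-Hochberg adjustment over all loci tested. Efficiency was the interaction of assay and light, on loci that passed the filter in both assays. Its alternatives included limma-voom with a sample weight per assay and the subtraction of separate fits. The SE is the absolute log2 fold change divided by the square root of F. CPM divide by the TMM-scaled count of tested loci. Intervals and floors cover counting error only. The fits were also run on simulated counts.

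Named are all members, the 2 largest and the smallest change of each further list, members of counts of 5 or fewer, and the nearest patterns. The members and lists were chosen with earlier results of these data known. Alternatives were DESeq2 1.42.0 size factors and Wald test, limma-voom (limma 3.58.1), other filters, nuclear loci only, the first-numbered model, a replicate block, and each library left out.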

Additional observations from a re-analysis of the deposited data

Results flagged for a closer look

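LHCB6 is listed because its response to blue light differed between the assays by the interaction test. Subtracting the separate mRNA fit from the footprint fit gave -1.21 log2 units. Footprints were higher in both blue-light libraries, and mRNA rose more. The interaction fitted to both assays together was -1.35 on the log2 scale (SE 0.22, edgeR quasi-likelihood adjusted p = 1.69e-04). Over the 18 alternatives it ranged from -1.64 to -1.07 and the adjusted p from 6.95e-07 to 0.011.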

How the results depend on the processing

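All fold changes of members kept their sign under every alternative run. The mRNA calls of LHCB3, LHCB4.1, LHCB4.2 and LHCB6 held under each, as did the footprint calls, except that LHCB7 did not pass the 10 CPM filter and was not tested there (6 members called). LHCB5 mRNA did not hold, as given above, and the DESeq2 Wald test gave it no adjusted p. In efficiency 2 members were called lower with the DESeq2 Wald test, limma-voom or the 10 CPM filter. Leaving out a library mattered too, with LHCB4.1 at -0.99 without dark mRNA replicate 2, as given above. The main edgeR fit called 1 lower (4 at an unadjusted p under 0.05). None was called higher (1 at an unadjusted p under 0.05, 0 with the DESeq2 Wald test), but 1 was without the low-count filter or with separate fits subtracted, and 0 to 1 with 1 library left out. Over all loci, the DESeq2 Wald test called 54 lower in mRNA instead of 82, and 3264 instead of 5975 in footprints (2078 higher, 1186 lower, against 3304 and 2671). With 1 library left out, 49 to 128 loci were lower in mRNA, and efficiency calls numbered 329 to 643 (201 to 352 higher, 128 to 343 lower) against 625 (321 and 304). Separate fits gave 202 lower in efficiency and shifted the median locus by 0.13 log2 units. The share of efficiency calls that were higher was 51.4%, but 62.5% with nuclear loci only, 63.1% without the filter, 63.5% with separate fits and 46.6% to 62.7% with 1 library left out. The causes of these shifts were not tested. Replicate numbers marked no pairing in the labels, and same-numbered libraries did not deviate together (correlation 0.029 in mRNA and 0.0086 in footprints). A replicate block changed no member's call, with LHCB6 efficiency at -1.36. Nuclear counts as library size, without TMM scaling, multiplied mRNA levels by 1.71 to 2.05 and footprint levels by 0.928 to 1.09. For LHCB6 mRNA per 1000 codons this gave 3792 instead of 1942 CPM in the dark and 18159 instead of 10569 in blue light. Its dark factor was the larger, so the rise of LHCB6 mRNA was smaller on this scale. The first-numbered model moved levels of LHCB4.2 alone, by 0.839 to 1.27 times, which put its blue-light footprints below those of LHCB4.1. Few mRNA counts limit the precision for LHCB4.3, LHCB5 and LHCB7.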
